A study of Callithrix jacchus with 20 samples.

Results

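The 9 genes described here, TFAP2A, TFAP2B, GATA2, GATA3, TBX3, HAND1, ISL1, GABRP and VTCN1, are markers or regulators of amnion and surface ectoderm. Their levels were followed by RNA-seq during the differentiation of marmoset (Callithrix jacchus) primordial germ cell-like cells (cjPGCLCs). They were chosen by symbol, and each of the 9 had a row in the authors' tables of raw and normalised counts, which list 25102 genes. All 9 also passed the filter on low counts, which left 15797 genes to be tested. GABRP and VTCN1 passed it only through their day 4 libraries, so for these a difference between day 4 and the earlier stages was built in.

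The amnion is the thin epithelium that closes over the primate epiblast soon after implantation, and early primordial germ cells of monkeys lie within or beside it. BMP signalling, which is used to induce primate germ cell-like cells, also turns pluripotent cells toward amnion and surface ectoderm. Among the 9 genes, TFAP2A and TFAP2B encode AP-2 transcription factors of surface ectoderm and neural crest, and GATA2 and GATA3 encode zinc finger factors that act downstream of BMP. TBX3 is a T-box repressor with roles in pluripotent cells and in limb and heart, HAND1 is a basic helix-loop-helix factor of extraembryonic and cardiac mesoderm, and ISL1 is a LIM homeodomain factor of amnion and cardiac progenitors. The remaining pair are cell surface proteins. GABRP is a subunit of the GABA-A receptor, and VTCN1 is an inhibitory ligand of the B7 family.

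All 20 libraries came from 1 line of induced pluripotent stem cells (cjiPSCs), DPZ_cjiPSC2, with 2 biological replicates in each of 10 conditions, so the values describe 1 line only. The cjiPSCs were kept without feeder cells in TESR medium or in cjPSCM, a medium of the expanded potential type that contains CHIR, IWR-1, A419259, LIF, vitamin C, TGFβ and FGF2. Precursors of mesendoderm (pre-ME) were induced from cells of each medium with the GSK3 inhibitor CHIR, either with or without Activin A (ActA). Pre-ME of the cjPSCM cultures was then aggregated into embryoid bodies with BMP4, LIF, SCF and EGF, and at day 4 double-positive cells, called cjPGCLCs, and double-negative somatic cells were sorted. The labels name INTa6 and EpCAM or CXCR4 and EpCAM as the sort markers, while the study's methods name INTα6 and CXCR4. No day 4 cells of TESR cultures were among the samples.

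Of 8 germ cell markers, 5 were higher in cjPGCLCs than in somatic cells under each protocol and 0 were lower past the test. Of all genes 3.68% were higher with ActA and 6.67% without ActA. SOX17 ranged from 913 to 2152 normalised counts in the 4 cjPGCLC libraries and from 48.4 to 219 in the 4 somatic libraries, and NANOS3 from 14.2 to 61.5 and from 0 to 3.54. The transcripts of all 3 genes named as sort markers were higher in cjPGCLCs under both protocols, for example CXCR4 with 1128 to 1317 against 49.5 to 76.1 normalised counts. The other germ cell markers, POU5F1, NANOG and KIT, did not pass the test. POU5F1, the gene of OCT4, had 1184 to 1490.1 normalised counts at day 4, and KIT with ActA had 817 and 914 in cjPGCLCs against 1096 and 1309 in somatic cells. TBXT, a marker of primitive streak and mesendoderm, reached 55.3 and 31.8 normalised counts in pre-ME of TESR cultures with ActA, but it had only 0 to 2 counts in the pre-ME libraries of cjPSCM cultures. The summed level of 5 mesendoderm genes, TBXT among them, was 38.5 to 56.5 normalised counts in cjPSCM cjiPSCs. In cjPSCM pre-ME it was 1931 to 2822 with ActA and 1466 to 1790 without ActA. Against cjPSCM cjiPSCs 2 of the 5 rose with ActA and 1 without ActA, and 0 fell. Of all genes 17.7% and 38% passed the test there in either direction.

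Between 4784964 and 22067099 reads per library were counted on genes, with a median of 11599813. A normalised count is the number of reads on a gene divided by the authors' size factor of the library. The replicates of cjiPSCs in cjPSCM differed more than those of any other condition, with an SD over genes of 0.959 in their log2 difference, against 0.311 to 0.619 elsewhere. Member results that changed by over 1.5 times without 1 of them are therefore given with and without it. A gene passed the test at an adjusted p under 0.05, from edgeR's quasi-likelihood test with Benjamini-Hochberg adjustment over 15797 genes, and lay past both thresholds of the study when its log2 fold change (log2FC) also exceeded 2 in size. Values of log2FC are given with their standard error (SE). In bulk RNA fewer expressing cells and less RNA per cell cannot be told apart.

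The factors differed in when and where they were detected. GATA3, HAND1, ISL1, GABRP and VTCN1 were higher in every one of the 8 day 4 libraries than in any of the 12 cjiPSC and pre-ME libraries, an arrangement found in 8.02% of the genes tested and in 3 of the 7 members other than GABRP and VTCN1. HAND1 ranged from 8.25 to 111 normalised counts in cjiPSCs and pre-ME and from 2135 to 4845 at day 4, and VTCN1 from 0 to 4.68 and from 77.5 to 642. TFAP2A, GATA2 and TBX3 also had their highest mean level at day 4, in cjPGCLCs obtained without ActA. TFAP2B was the only one of the 9 with its highest mean in cjiPSCs, at 497 ± 61.2 normalised counts (SD, n = 2) in TESR medium.

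**Figure D1:**
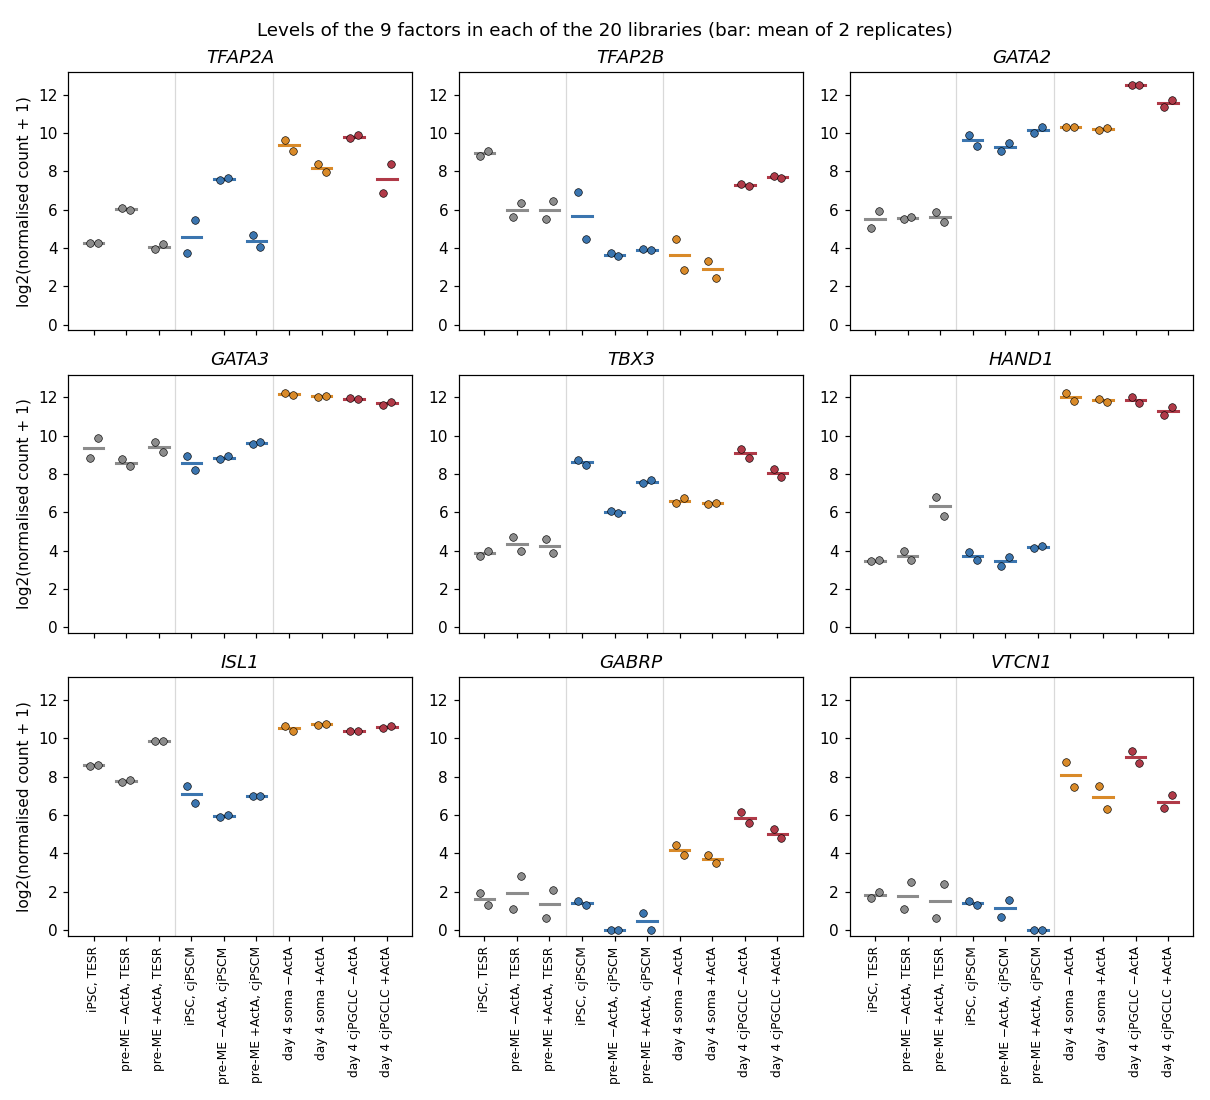
Each panel shows 1 gene and each point 1 library, as log2 of the normalised count plus 1, with a bar at the mean of the 2 replicates. HAND1 and VTCN1 step up at day 4 in sorted cells of both kinds, GATA2 is low in all 6 libraries of TESR cultures, and TFAP2B and TBX3 are higher in cjPGCLCs than in somatic cells.

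The order of the conditions differed between members. For HAND1 the means of somatic cells without ActA, cjPGCLCs without ActA and somatic cells with ActA overlapped with their neighbours, cjPGCLCs with ActA followed below them, and pre-ME with ActA from TESR medium came next at 82.9 ± 39.1 normalised counts (SD, n = 2). For VTCN1 the order was cjPGCLCs without ActA, somatic cells without ActA, somatic cells with ActA and cjPGCLCs with ActA, and each overlapped with the next. GABRP fell in the order of cjPGCLCs without ActA, cjPGCLCs with ActA, somatic cells without ActA and somatic cells with ActA, of which only the somatic conditions overlapped. For both genes the early conditions lay near 0.

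The GATA2 means ran from 5867 ± 97.9 normalised counts (SD, n = 2) in cjPGCLCs without ActA through 3038 ± 588 with ActA to 1289.7 ± 13.9 and 1179 ± 51.6 in the somatic cells without and with ActA. Somatic cells with ActA overlapped with pre-ME with ActA from cjPSCM, and the 3 conditions of TESR medium overlapped with each other. TBX3 was ordered as cjPGCLCs without ActA, cjiPSCs in cjPSCM, cjPGCLCs with ActA and pre-ME with ActA from cjPSCM, with no overlap among these, and the somatic conditions overlapped with each other further down. GATA3 ran from somatic cells without ActA through somatic cells with ActA and cjPGCLCs without ActA to cjPGCLCs with ActA, with no overlap between neighbours, whereas the ISL1 order was somatic cells with ActA, cjPGCLCs with ActA, somatic cells without ActA and cjPGCLCs without ActA, with an overlap of the middle pair. TFAP2A was highest in cjPGCLCs and then somatic cells without ActA, which did not overlap, while somatic cells with ActA, cjPGCLCs with ActA and cjPSCM pre-ME without ActA each overlapped with the next. After cjiPSCs in TESR medium, TFAP2B was highest in cjPGCLCs with ActA and then in cjPGCLCs without ActA, again without overlap.

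To ask whether these factors differed by culture medium before differentiation, cjiPSCs in cjPSCM were compared with cjiPSCs in TESR medium. GATA2 and TBX3 were much higher in cjPSCM, while TFAP2B, ISL1 and, less firmly, GATA3 were lower. Thus 5 of the 9 genes passed the test, against 36.2% of all genes, and 3 lay past both thresholds, against 9.18%. GATA2 had 32.5 and 59.6 normalised counts in the TESR replicates and 948 and 652 in the cjPSCM replicates, with a log2FC of 4.23 ± 0.27 (SE, adjusted p = 1.05e-08). TBX3, which is also active in naive pluripotent cells, had 12.1 and 14.9 in TESR medium against 431 and 353 in cjPSCM, with a log2FC of 4.88 ± 0.32 (SE, adjusted p = 1.14e-08). For both genes the media did not overlap.

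TFAP2B fell from 454 and 541 normalised counts in TESR medium to 119 and 20.8 in cjPSCM, with a log2FC of -2.76 ± 0.48 (SE, adjusted p = 0.000251). The cjPSCM replicates lay far apart but both below TESR medium, and the log2FC was -4.60 (adjusted p = 1.74e-06) without replicate 1 and -2.06 (adjusted p = 0.000183) without replicate 2. ISL1 fell from 379 and 395 to 183 and 99.3 normalised counts, a log2FC of -1.44 ± 0.19 (SE, adjusted p = 1.63e-05). GATA3 had 461 and 949 in TESR medium against 495 and 295 in cjPSCM, with groups that overlapped, and its log2FC of -0.81 ± 0.27 (SE, adjusted p = 0.0277) became -0.24 (adjusted p = 0.461) without TESR replicate 2 and -0.48 (adjusted p = 0.202) without cjPSCM replicate 2. TFAP2A had 18.2 and 17.9 normalised counts in TESR medium against 12.2 and 43.0 in cjPSCM, and did not pass the test. HAND1 had 9.92 and 10.4 in TESR medium against 14.1 and 10.4 in cjPSCM and also did not pass. GABRP and VTCN1 each had 6 counts over the TESR replicates and 3 over the cjPSCM replicates.

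GATA6, a relative of GATA2 active in mesoderm and endoderm, differed between the media in the same direction, with 136 and 182 against 2821 and 2232 normalised counts and a log2FC of 4.00 ± 0.30 (SE, adjusted p = 4.77e-08). TFAP2C, the AP-2 factor of primate germ cells, was higher in cjPSCM as well, at 4.05 ± 0.55 (SE, adjusted p = 2.63e-05) on the log2 scale. The cjPSCM replicates had 765 and 258 normalised counts of SOX17 and 213 and 60.8 of TFAP2C, so both germ cell genes were higher in replicate 1, as was TFAP2B. Their part in the TFAP2B values was not tested.

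In pre-ME, the level of TFAP2A differed with ActA. TFAP2A rose in pre-ME induced without ActA from cells of either medium, and did not pass the test in pre-ME induced with ActA. In cjPSCM cultures it had 12.2 and 43.0 normalised counts in cjiPSCs, 187 and 198 in pre-ME without ActA and 24.2 and 15.4 in pre-ME with ActA. In TESR cultures it had 18.2 and 17.9 in cjiPSCs, 66.4 and 62.2 in pre-ME without ActA and 14.2 and 17.5 with ActA, so only the pre-ME without ActA stood above the starting cells in each medium. The log2 fold change to pre-ME without ActA was 2.96 ± 0.47 (SE, adjusted p = 0.000189) in cjPSCM and 1.83 ± 0.49 (SE, adjusted p = 0.00803) in TESR medium, while with ActA it was -0.27 ± 0.61 (SE, adjusted p = 0.791) and -0.18 ± 0.57 (SE, adjusted p = 0.835). Without cjPSCM cjiPSC replicate 1 the rise in cjPSCM was 2.21 (adjusted p = 0.0062), and without replicate 2 it was 3.98 (adjusted p = 4.46e-05). With ActA the cjPSCM value was 0.76 without cjiPSC replicate 2. The comparisons with and without ActA share their cjiPSC libraries.

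A direct comparison of the pre-ME conditions gave a TFAP2A level with ActA that was 9.42-fold lower in cjPSCM cultures and 4.03-fold lower in TESR cultures. The log2FCs were -3.24 ± 0.48 (SE, adjusted p = 0.00026) and -2.01 ± 0.46 (SE, adjusted p = 0.00932). The TESR value was -1.87 (adjusted p = 0.108) and -2.17 (adjusted p = 0.0615) without replicate 1 or 2 of the pre-ME with ActA, and the rise from TESR cjiPSCs was 1.87 (adjusted p = 0.0727) without cjiPSC replicate 1.

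TFAP2B moved in the other direction and was the single member that fell in pre-ME of both media, with and without ActA. In TESR cultures it fell from 454 and 541 normalised counts in cjiPSCs to 48.3 and 81.9 without ActA and 44.9 and 87.0 with ActA. In cjPSCM cultures it fell from 119 and 20.8 to 12.4 and 10.9 without ActA and 14.2 and 14.0 with ActA. The lower cjiPSC replicate in cjPSCM was close to the pre-ME libraries. The TESR fold changes were -2.91 ± 0.46 (SE, adjusted p = 0.000166) and -2.90 ± 0.46 (SE, adjusted p = 0.000188) on the log2 scale, and those in cjPSCM were -2.61 ± 0.60 (SE, adjusted p = 0.00294) and -2.36 ± 0.61 (SE, adjusted p = 0.0138). The cjPSCM values rested on cjiPSC replicate 1, without which they were -0.76 (adjusted p = 0.417) and -0.52 (adjusted p = 0.734), and without replicate 2 they were -3.30 (adjusted p = 8.25e-06) and -3.06 (adjusted p = 4.3e-05). With ActA, the adjusted p also rose to 0.125 and 0.071 without pre-ME replicate 1 or 2.

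**Figure D2:**
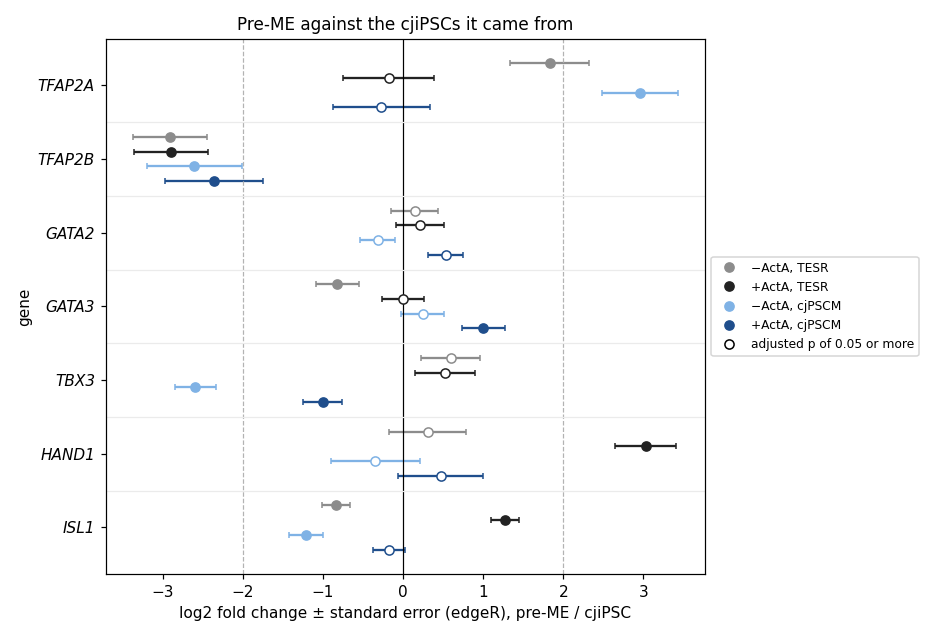
Points are edgeR log2 fold changes of pre-ME against the cjiPSCs of the same medium, with standard errors, and open points did not pass the test. GABRP and VTCN1 are left out because of their counts near 0. TFAP2A lies to the right only without ActA, TFAP2B lies to the left in all 4 comparisons, and HAND1 passed the test only with ActA in TESR cultures. Dashed lines mark a log2 fold change of 2 in size.

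TBX3 fell in pre-ME of cjPSCM cultures, from 431 and 353 normalised counts to 65.4 and 61.4 without ActA and 186 and 202 with ActA. The log2FCs were -2.59 ± 0.26 (SE, adjusted p = 2.92e-06) and -1.01 ± 0.24 (SE, adjusted p = 0.00858). The 3 conditions did not overlap, and TBX3 was higher with ActA than without, a log2 difference of 1.59 ± 0.26 (SE, adjusted p = 0.00067). The fall with ActA was -0.83 (adjusted p = 0.0654) without cjiPSC replicate 1 and -0.95 (adjusted p = 0.0966) without pre-ME replicate 1. In TESR cultures TBX3 stayed between 12.1 and 25.2 normalised counts in the 6 libraries, and no comparison among them passed the test.

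The GATA2 level did not pass the test between cjiPSCs and pre-ME in either medium, and remained between 32.5 and 59.6 normalised counts in the 6 TESR libraries. In pre-ME of cjPSCM cultures it had 542 and 719 normalised counts without ActA and 1039.7 and 1263 with ActA, which did not overlap. ActA gave a log2 difference of 0.85 ± 0.21 (SE, adjusted p = 0.0119), which was 0.71 (adjusted p = 0.0844) without replicate 2 with ActA and 0.65 (adjusted p = 0.104) without replicate 1 without ActA. The GATA2 of pre-ME with ActA lay 23.4-fold above that of the matching TESR pre-ME, with a log2FC of 4.55 ± 0.26 (SE, adjusted p = 1.35e-08). Without ActA the log2 fold change between media was 3.76 ± 0.25 (SE, adjusted p = 6.38e-08).

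GATA3 passed the test in 2 of the 4 comparisons of pre-ME with cjiPSCs. It had 495 and 295 normalised counts in cjPSCM cjiPSCs and 763 and 824 in pre-ME with ActA, which did not overlap, and rose by 1.00 ± 0.27 (SE, adjusted p = 0.0173) on the log2 scale. It fell in TESR pre-ME without ActA, from 461 and 949 to 433 and 345, by a log2FC of -0.82 ± 0.27 (SE, adjusted p = 0.0235). The rise was 0.68 (adjusted p = 0.0741) without cjiPSC replicate 2, and its adjusted p was 0.0742 and 0.0811 without pre-ME replicate 1 or 2. The fall was -0.25 (adjusted p = 0.466) without cjiPSC replicate 2 and -0.66 (adjusted p = 0.17) without pre-ME replicate 2.

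HAND1 and ISL1 responded to ActA in TESR cultures. HAND1 had 9.92 and 10.4 normalised counts in cjiPSCs, 14.8 and 10.3 in pre-ME without ActA and 111 and 55.2 with ActA, and the last did not overlap with the others. Its rise over cjiPSCs was 3.03 ± 0.38 (SE, adjusted p = 2.2e-05) and that over pre-ME without ActA 2.72 ± 0.33 (SE, adjusted p = 3.69e-05) on the log2 scale. ISL1 had 379 and 395 normalised counts in cjiPSCs, 207 and 223 in pre-ME without ActA and 934 and 918 with ActA, so it fell without ActA, with a log2FC of -0.83 ± 0.17 (SE, adjusted p = 0.0015), and rose with ActA by 1.27 ± 0.17 (SE, adjusted p = 4.09e-05). Pre-ME with ActA exceeded pre-ME without it by 2.10 ± 0.17 (SE, adjusted p = 9.8e-07) for ISL1 on the log2 scale.

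In cjPSCM cultures HAND1 stayed between 8.25 and 18.3 normalised counts in pre-ME, and ISL1 had 59.5 and 62.4 without ActA and 126 and 126 with ActA. ISL1 was thus again higher with ActA, by 1.03 ± 0.21 (SE, adjusted p = 0.00329) on the log2 scale. It was the only member to pass the test as higher with ActA in pre-ME of both media. GATA3 and HAND1 were also higher with ActA in both media, without overlap of the replicates. GATA3 passed in neither, at 0.82 ± 0.26 (SE, adjusted p = 0.0646) in TESR and 0.76 ± 0.27 (SE, adjusted p = 0.0521) in cjPSCM cultures. HAND1 did not pass in cjPSCM cultures, at 0.81 ± 0.51 (SE, adjusted p = 0.268). Against cjiPSCs ISL1 fell without ActA by a log2FC of -1.21 ± 0.21 (SE, adjusted p = 0.000339). This value ranged from -1.57 to -0.66 when 1 library was left out. In a fit of the compared libraries alone it was -1.15 ± 0.37 (SE, adjusted p = 0.112) and did not pass. The ISL1 level of pre-ME with ActA was 7.41-fold lower in cjPSCM than in TESR cultures, a log2FC of -2.89 ± 0.19 (SE, adjusted p = 3.82e-08), and that of HAND1 4.80-fold lower at -2.26 ± 0.36 (SE, adjusted p = 0.000281).

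The other AP-2 and T-box members also differed between the media in pre-ME. TFAP2A without ActA was higher in cjPSCM cultures, by 1.59 ± 0.38 (SE, adjusted p = 0.00897) on the log2 scale. TFAP2B was lower in cjPSCM, with log2FCs of -2.23 ± 0.60 (SE, adjusted p = 0.0118) with ActA and -2.46 ± 0.58 (SE, adjusted p = 0.00723) without. TBX3 was higher in cjPSCM, by 3.36 ± 0.29 (SE, adjusted p = 6.47e-07) with ActA and 1.69 ± 0.29 (SE, adjusted p = 0.000665) without ActA, and ISL1 without ActA was lower, with a log2FC of -1.82 ± 0.20 (SE, adjusted p = 6.49e-06). In each of these comparisons the replicates of the media did not overlap. The TFAP2A call was lost without cjPSCM replicate 2 (adjusted p = 0.0592), TESR replicate 1 (0.0602) or TESR replicate 2 (0.0894), and both TFAP2B calls without replicate 1 or 2 of cjPSCM or without TESR replicate 2, with adjusted p between 0.0589 and 0.109.

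GABRP and VTCN1 were barely detected before day 4. GABRP had 0 and 0 counts in pre-ME without ActA and 1 and 0 with ActA in cjPSCM cultures, and at most 13 counts in any TESR library. VTCN1 had 1 and 2 counts without ActA and 0 and 0 with ActA in the same pre-ME, and at most 10 in TESR libraries. A count of 3 corresponds to between 1.40 and 4.47 normalised counts in these libraries, so changes near 0 were not detectable at this depth. One comparison passed the test, in which GABRP without ActA was at least 3.41-fold lower in cjPSCM than in TESR pre-ME, from 0 against 15 counts (adjusted p = 0.0317). It was lost without TESR replicate 2 (adjusted p = 0.33), which held 13 of these counts, and without replicate 1 (0.161) or 2 (0.128) of cjPSCM.

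Counted over the pre-ME comparisons, 3 of the 9 genes passed the test with ActA and 4 without ActA against TESR cjiPSCs, where 34.5% and 36.6% of all genes did. Against cjPSCM cjiPSCs the numbers were 3 and 4, with 17.7% and 38% of all genes. In the comparison of ActA with no ActA 3 genes passed in TESR pre-ME, against 8.84% of all genes, and 4 in cjPSCM pre-ME, against 20.9%. Between the media, 5 genes passed in pre-ME with ActA and 6 in pre-ME without ActA, where 27.4% and 14% of all genes did. The share of members lay near that of all genes against TESR cjiPSCs and above it in the comparisons of ActA and of media, and no test was made of these shares.

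Whether the ActA effect on pre-ME differed between the media was tested as an interaction. With edgeR 0 of the 9 genes passed, against 0.399% of all genes, although 4 had an unadjusted p under 0.05. DESeq2 called 3 of the 9, namely TBX3, HAND1 and ISL1, where it called 338 of 11475 genes in all. The difference of the log2 fold changes, cjPSCM minus TESR, was 1.67 ± 0.41 (SE, adjusted p = 0.0968) for TBX3, -1.91 ± 0.63 (SE, adjusted p = 0.167) for HAND1 and -1.07 ± 0.27 (SE, adjusted p = 0.0977) for ISL1. For TFAP2A it was -1.23 ± 0.69 (SE, adjusted p = 0.362).

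At day 4 most members were higher than in pre-ME. GABRP and VTCN1, for which this was built in by the filter, are left out of the counts that follow. Compared with the pre-ME of the same protocol, 6 of the other 7 genes rose in cjPGCLCs with ActA and all 7 in cjPGCLCs without ActA, where 25.3% and 21.5% of all genes rose. Past both thresholds were 5 and 7 of them, against 6.15% and 5.77% of all genes in that direction. In the somatic cells 4 of the 7 rose with ActA and TBX3 fell, where 23.8% of all genes rose and 24.2% fell, and 5 rose without ActA, where 20.6% did. The cjPGCLC and somatic comparisons share their pre-ME libraries, and TFAP2A, GATA3, HAND1 and ISL1 rose in all 4.

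HAND1 showed the steepest rise of the well-detected members. Without ActA it went from 8.25 and 11.9 normalised counts in pre-ME to 4155 and 3343 in cjPGCLCs and 4845 and 3588 in somatic cells. With ActA it went from 16.7 and 18.3 to 2135 and 2858 in cjPGCLCs and 3934 and 3497 in somatic cells. Every day 4 library lay far above every pre-ME library. The log2 fold changes without ActA were 8.57 ± 0.35 (SE, adjusted p = 7.05e-11) in cjPGCLCs and 8.72 ± 0.35 (SE, adjusted p = 3.14e-11) in somatic cells, and with ActA 7.16 ± 0.34 (SE, adjusted p = 2.77e-10) and 7.73 ± 0.34 (SE, adjusted p = 1.08e-10).

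VTCN1 and GABRP had few or no reads in pre-ME and were detected in every day 4 library. VTCN1 had 642 and 426 normalised counts in cjPGCLCs without ActA and 80.3 and 132 with ActA. In somatic cells it had 438 and 173 without ActA and 184 and 77.5 with ActA. Against the pre-ME with ActA, in which no read was counted, VTCN1 was at least 63.6-fold higher in cjPGCLCs and at least 80.0-fold higher in somatic cells. Against 3 counts in pre-ME without ActA the ratio was 512 (exact 95% counting interval 175 to 2485) in cjPGCLCs and 247 (exact 95% counting interval 83.9 to 1207) in somatic cells.

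GABRP had 69.1 and 47.3 normalised counts in cjPGCLCs without ActA and 37.2 and 27.0 with ActA. In somatic cells it had 20.8 and 13.9 without ActA and 14.2 and 10.4 with ActA. Without ActA these were at least 55.5-fold and at least 14.7-fold above the pre-ME, which had no read. With ActA, against a single count in pre-ME, the ratio was 63.9 (exact 95% counting interval 11.1 to 2563) in cjPGCLCs and 23.1 (exact 95% counting interval 3.55 to 972) in somatic cells. These intervals cover counting error only.

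ISL1 and GATA3 reached nearly level values in the sorted populations. ISL1 ranged from 1329 to 1747 normalised counts over the 8 day 4 libraries, after 59.5 and 62.4 in pre-ME without ActA and 126 and 126 with ActA. Its log2 fold changes over pre-ME lay between 3.63 and 4.56 in the 4 comparisons, with adjusted p of 1.02e-09 or less. GATA3 ranged from 3116 to 4737 at day 4, after 438 and 486 in pre-ME without ActA and 763 and 824 with ActA, with log2 fold changes between 2.07 and 3.29 and adjusted p of 1.29e-05 or less.

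TFAP2A reached 854 and 958 normalised counts in cjPGCLCs and 796 and 539.9 in somatic cells without ActA. With ActA it reached 116 and 329.9 in cjPGCLCs and 335 and 247 in somatic cells, all above the pre-ME with ActA. With ActA the rise from pre-ME was 3.40 ± 0.48 (SE, adjusted p = 2.99e-05) in cjPGCLCs and 3.80 ± 0.48 (SE, adjusted p = 9.44e-06) in somatic cells on the log2 scale. The cjPGCLC value was 4.00 (adjusted p = 3.17e-06) without cjPGCLC replicate 1 and 2.49 (adjusted p = 0.000284) without replicate 2. Without ActA the further rise was 2.22 ± 0.37 (SE, adjusted p = 0.000171) and 1.76 ± 0.37 (SE, adjusted p = 0.00116).

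TFAP2B, GATA2 and TBX3 took separate courses in the sorted populations. TFAP2B rose from pre-ME to cjPGCLCs, by 3.88 ± 0.58 (SE, adjusted p = 5.33e-05) with ActA and 3.70 ± 0.57 (SE, adjusted p = 9.22e-05) without ActA on the log2 scale, and did not pass the test in somatic cells. GATA2 rose in cjPGCLCs, by 1.40 ± 0.21 (SE, adjusted p = 5.92e-05) with ActA and 3.21 ± 0.23 (SE, adjusted p = 2.29e-08) without ActA, and in somatic cells without ActA by 1.01 ± 0.22 (SE, adjusted p = 0.00139). TBX3 rose in cjPGCLCs without ActA by 3.10 ± 0.26 (SE, adjusted p = 1.63e-07) and fell in somatic cells with ActA, from 186 and 202 to 86.8 and 89.4 normalised counts, by a log2FC of -1.14 ± 0.27 (SE, adjusted p = 0.00235).

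The comparison of cjPGCLCs with somatic cells asks which of these factors mark the germ cell-like population. TFAP2B, GATA2 and TBX3 were higher in cjPGCLCs under both protocols, and 0 of the 9 genes were lower past the test, where 1.16% of all genes were lower with ActA and 2.96% without. With ActA 3 of the 9 genes were higher, against 3.68% of all genes, and without ActA 4, against 6.67%. The comparisons with and without ActA share no library.

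TFAP2B separated the populations most. It had 219 and 198 normalised counts in cjPGCLCs and 8.85 and 4.47 in somatic cells with ActA, and 162 and 148 against 20.8 and 6.19 without ActA. The 4 somatic libraries held only 3 to 9 counts each. The log2FCs were 4.99 ± 0.71 (SE, adjusted p = 0.000451) and 3.67 ± 0.67 (SE, adjusted p = 0.00177), and the latter was 2.91 (adjusted p = 0.0643) without somatic replicate 2 and 4.64 (adjusted p = 0.0101) without somatic replicate 1.

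GATA2 had 2622 and 3454 normalised counts in cjPGCLCs against 1142 and 1215 in somatic cells with ActA, and 5937 and 5798 against 1279.9 and 1299.6 without ActA. The populations did not overlap, and the log2FCs were 1.37 ± 0.22 (SE, adjusted p = 0.00102) and 2.20 ± 0.22 (SE, adjusted p = 6.97e-06). TBX3 had 306 and 229 against 86.8 and 89.4 with ActA, and 644 and 449 against 87.6 and 107 without, also with no overlap, and log2 fold changes of 1.62 ± 0.27 (SE, adjusted p = 0.00161) and 2.50 ± 0.27 (SE, adjusted p = 1.22e-05). The differences of these 3 genes thus ranged from 2.59-fold for GATA2 with ActA to 31.8-fold for TFAP2B with ActA.

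**Figure D3:**
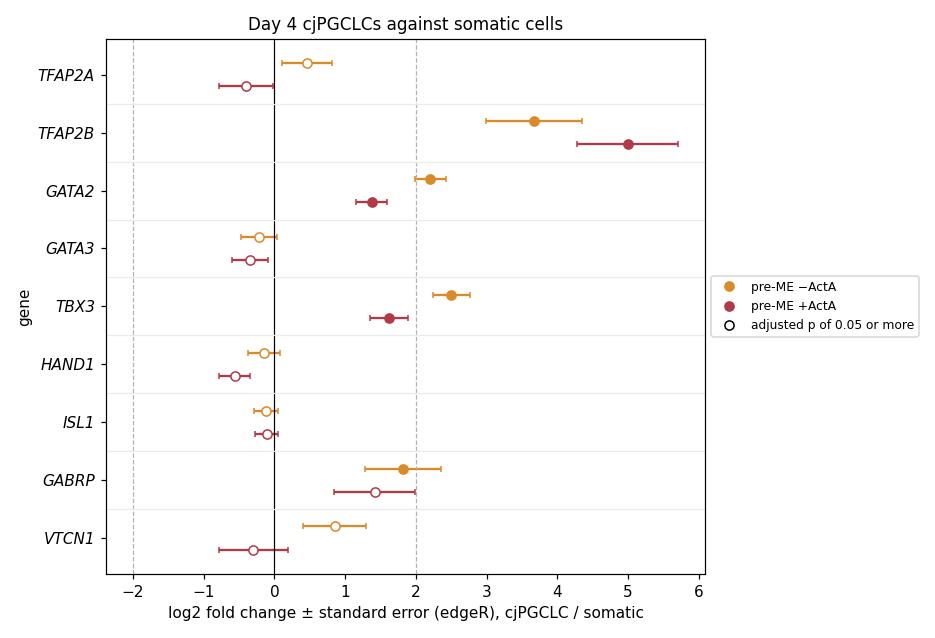
Points are edgeR log2 fold changes of cjPGCLCs against somatic cells with standard errors for both protocols, open where the test was not passed, and dashed lines mark a log2 fold change of 2. TFAP2B, GATA2 and TBX3 lie to the right of 0 under both protocols, whereas GATA3, HAND1 and ISL1 lie near 0.

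GABRP, with 91 and 30 counts in cjPGCLCs and 9 and 9 in somatic cells without ActA, was higher in cjPGCLCs by 1.82 ± 0.53 (SE, adjusted p = 0.042) on the log2 scale. Its replicates did not overlap, but the adjusted p was between 0.0619 and 0.314 when any 1 of the 4 libraries, each cjPGCLC and somatic replicate, was left out, 0.154 with DESeq2 and 0.0512 with the replicate number as a block. With ActA its log2 fold change was 1.42 ± 0.57 (SE, adjusted p = 0.215).

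The other 5 genes did not pass the test under either protocol. For HAND1 the log2 fold change was -0.57 ± 0.22 (SE, adjusted p = 0.195) with ActA, where the groups did not overlap, and -0.15 ± 0.22 (SE, adjusted p = 0.791) without ActA, where they did. The lower HAND1 level with ActA passed with no filter on low counts (adjusted p = 0.0171) and in a fit of the compared libraries alone (0.0224), as did GATA3 in the latter (0.0363). GATA3 had -0.34 ± 0.26 (SE, adjusted p = 0.62) and -0.22 ± 0.26 (SE, adjusted p = 0.722), and ISL1 -0.11 ± 0.17 (SE, adjusted p = 0.852) and -0.12 ± 0.17 (SE, adjusted p = 0.775). The standard errors of ISL1 were the smallest of the 9 genes. TFAP2A had -0.41 ± 0.38 (SE, adjusted p = 0.723) and 0.46 ± 0.35 (SE, adjusted p = 0.526), and VTCN1 -0.30 ± 0.48 (SE, adjusted p = 0.865) and 0.85 ± 0.44 (SE, adjusted p = 0.299). Without replicate 1 of the cjPGCLCs with ActA, the with-ActA difference turned to 0.20 (adjusted p = 1) for TFAP2A and 0.041 (adjusted p = 1) for VTCN1, and without replicate 1 of the somatic cells with ActA that of VTCN1 was 0.44 (adjusted p = 0.895).

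Whether the sorting difference depended on ActA was tested as an interaction, and 0 of the 9 genes passed with edgeR, against 0.0633% of all genes. An unadjusted p under 0.05 was found for 2 of them with edgeR, GATA2 and TBX3. DESeq2 also called 0 of the 9, where it called 92 of 14395 genes in all. The difference of log2 fold changes, with ActA minus without, was -0.83 ± 0.30 (SE, adjusted p = 0.553) for GATA2 and -0.89 ± 0.38 (SE, adjusted p = 0.717) for TBX3.

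Day 4 cjPGCLCs of the protocols with and without ActA were compared next. TFAP2A, VTCN1, GATA2 and TBX3 were lower in cjPGCLCs with ActA, so that 4 of the 9 genes fell where 1.16% of all genes did, and TFAP2A and VTCN1 lay past both thresholds, against 0.12%. TFAP2A had 116 and 329.9 normalised counts with ActA and 854 and 958 without, a log2FC of -2.06 ± 0.37 (SE, adjusted p = 0.00652). VTCN1 had 80.3 and 132 with ActA and 642 and 426 without, with -2.36 ± 0.47 (SE, adjusted p = 0.0126). The replicates of the protocols did not overlap in these genes, although those of TFAP2A lay further apart with ActA than without.

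GATA2 had 2622 and 3454 normalised counts with ActA and 5937 and 5798 without, and TBX3 had 306 and 229 with ActA and 644 and 449 without. Their log2FCs were -0.95 ± 0.21 (SE, adjusted p = 0.0212) and -1.03 ± 0.24 (SE, adjusted p = 0.0269), and neither gene overlapped between protocols. Each of these 4 calls was lost when 1 or more of the libraries was left out. Without replicate 1 of the cjPGCLCs with ActA the values were -1.46 (adjusted p = 0.0883) for TFAP2A, -2.02 (adjusted p = 0.205) for VTCN1, -0.77 (adjusted p = 0.288) for GATA2 and -1.26 (adjusted p = 0.092) for TBX3. Without replicate 2 with ActA the TFAP2A value was -2.97 (adjusted p = 0.00171). Calls were also lost without replicate 2 with ActA for TBX3, without replicate 1 of the cjPGCLCs without ActA for VTCN1, GATA2 and TBX3, and without replicate 2 of these for TFAP2A and GATA2, with adjusted p between 0.0549 and 0.387.

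**Figure D4:**
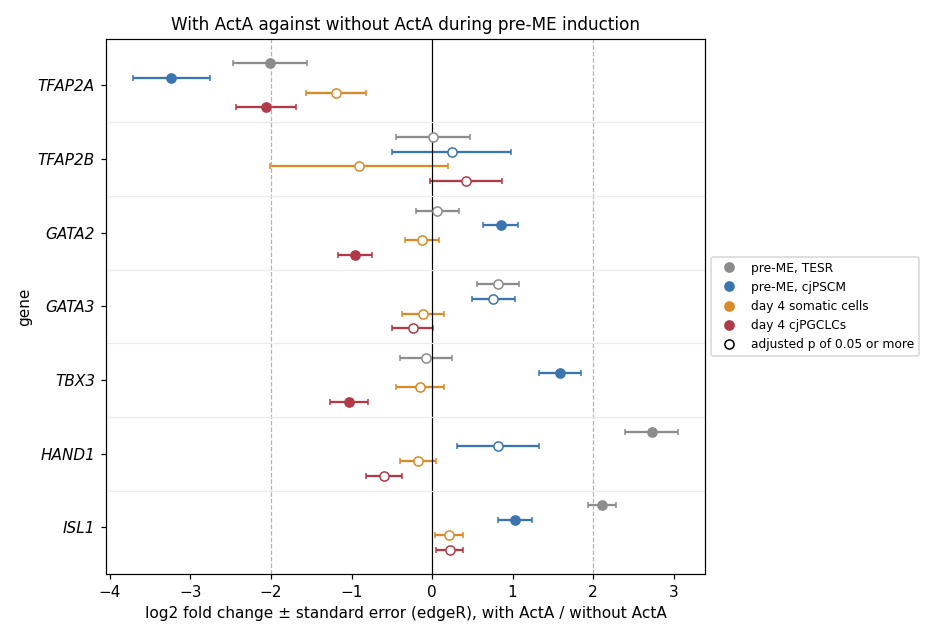
Points are edgeR log2 fold changes of conditions with ActA against those without, with standard errors, in pre-ME of both media and in both day 4 populations, open where the test was not passed, and dashed lines mark a log2 fold change of 2 in size. GABRP and VTCN1 are left out because of their pre-ME counts near 0. TFAP2A lies to the left in all 4 comparisons, and TBX3 and GATA2 lie to the right in cjPSCM pre-ME and to the left in cjPGCLCs.

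In the somatic cells 0 of the 9 genes passed the same comparison with edgeR, as was true of nearly all genes (0.0253% passed), and DESeq2 also called 0. An unadjusted p under 0.05 was found for 2 genes with either tool. TFAP2A had 335 and 247 normalised counts with ActA and 796 and 539.9 without, a log2FC of -1.19 ± 0.37 (SE, adjusted p = 0.671), and VTCN1 had 184 and 77.5 with ActA and 438 and 173 without, with -1.21 ± 0.47 (SE, adjusted p = 1). In a fit of the 4 somatic libraries alone the adjusted p of TFAP2A was 0.00176, and with no filter on low counts it was 5.64e-05 for TFAP2A and 0.00418 for VTCN1.

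Correlations among the 9 genes over the 20 libraries, which share cultures and library depth, are given as a description only. Of the 36 pairs, 12 had a Pearson's r over 0.8 on the log2 CPM scale. GATA3, HAND1, ISL1, GABRP and VTCN1 correlated with each other at 0.81 to 0.97, with HAND1 and GATA3 the closest pair. GABRP and VTCN1 passed the filter only through their day 4 libraries, so their correlation with members that were higher at day 4 was built in. GATA3, HAND1 and ISL1 alone correlated at 0.84 to 0.97. GATA2 and TBX3 formed another pair at 0.91. TFAP2A correlated with VTCN1 at 0.86, and TFAP2B with no member above 0.26 and with TFAP2A at -0.24.

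**Figure D5:**
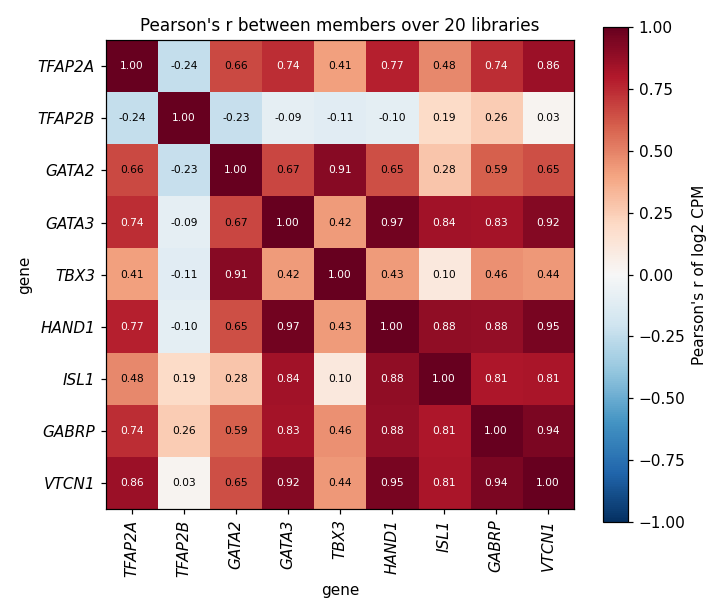
Each cell gives Pearson's r between a pair of genes over 20 libraries, on the log2 CPM scale. The block of GATA3, HAND1, ISL1, GABRP and VTCN1 lies at 0.81 or above, GATA2 and TBX3 pair at 0.91, and TFAP2B stands apart from all other members. For GABRP and VTCN1, which passed the filter only through day 4 libraries, correlation with members higher at day 4 was built in.

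Outside the set, the genes most like each member over the 20 libraries among 13250 named genes had r between 0.85 and 0.99. For HAND1 they were GPX3 (0.99), PDGFRA (0.98) and FAM107B (0.98), and for VTCN1 PDGFRA (0.97), PLN (0.97) and MATN2 (0.97). For GATA3 they were TBX20 (0.98), PTH1R (0.97) and TBX2 (0.97), of which TBX20 and TBX2 are T-box genes, and for ISL1 they were TAC3 (0.96), FBN2 (0.94) and IRAG1 (0.94). The closest to TFAP2A were RTN1 (0.95), AFF1 (0.93) and THSD7B (0.92) and to TFAP2B HHIP (0.90), SORCS2 (0.90) and LPL (0.85). GATA2 had PRSS16 (0.97), RYR2 (0.95) and DGKA (0.95), TBX3 had SSH3 (0.97), MFGE8 (0.96) and CAPN1 (0.96), and GABRP had MATN2 (0.95), RORA (0.95) and JMY (0.95). The rank correlation (Spearman) with the closest gene was 0.84 for HAND1, 0.85 for GATA2 and 0.82 for VTCN1. For the other members it lay between 0.86 and 0.97. For GABRP and VTCN1, likeness to genes that are higher at day 4 was built in by the filter.

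Among 12 family relatives of the members, the AP-2 gene TFAP2C resembled TFAP2B in its preference for cjPGCLCs. It had 113 and 114 normalised counts in cjPGCLCs and 28.3 and 25.3 in somatic cells with ActA, and 100.2 and 126 against 18.4 and 27.8 without, with log2 fold changes of 2.09 ± 0.51 (SE, adjusted p = 0.023) and 2.25 ± 0.53 (SE, adjusted p = 0.0109). TFAP2D had at most 1 count in any library. HAND2 was higher at day 4, like HAND1, with 403 to 3509.9 normalised counts against 2.34 to 11.2 in pre-ME, but without ActA it was lower in cjPGCLCs than in somatic cells, by a log2FC of -2.26 ± 0.41 (SE, adjusted p = 0.00154). TBX2, with 1965 to 3757 normalised counts at day 4 and 19.2 to 93.5 in pre-ME, did not pass the test between the sorted populations, at -0.053 ± 0.23 (SE, adjusted p = 0.958) and -0.48 ± 0.23 (SE, adjusted p = 0.248). Of the relatives 9 were tested, and in the comparison of cjPGCLCs with somatic cells TFAP2C passed with ActA and TFAP2C, HAND2 and TBX5 passed without ActA.

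Among the other GATA factors, none passed the test between cjPGCLCs and somatic cells. GATA4 had 690.2 to 3322 normalised counts at day 4 after 3.84 to 28.7 in pre-ME, with log2 fold changes of cjPGCLCs against somatic cells of 0.54 ± 0.34 (SE, adjusted p = 0.519) and 0.37 ± 0.34 (SE, adjusted p = 0.608). In another marmoset assembly, calJac240_pri, the locus LOC118147698 overlaps GATA2, and it moved with GATA2, from 0.547 to 7.45 normalised counts in TESR libraries to 497 to 917 in cjPGCLCs. The strand setting of the counting is not given in the sources used here, so reads of GATA2 and of this locus cannot be told apart. LOC118151555, beside ISL1, ranged from 44.1 to 152 normalised counts at day 4.

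The set was read against other markers of the tissues named. Of 15 further amnion markers tested, 9 rose and 2 fell from pre-ME to cjPGCLCs without ActA, with a median log2 fold change of 2.46 against 0.014 over all genes, and 8 rose and 4 fell in somatic cells, with 1.77. Of all genes 21.5% and 20.6% rose in these comparisons. The list shares DLX5, MSX2, KRT8 and KRT18 with that of surface ectoderm and TFAP2C with that of germ cell markers, and its KRT7 was not analysed here. DLX5, a homeobox gene of surface ectoderm, was among those that rose, at 3.86 ± 0.36 (SE, adjusted p = 4.63e-07) and 4.79 ± 0.36 (SE, adjusted p = 4.27e-08) on the log2 scale, and so was MSX2, a BMP target, at 3.75 ± 0.39 (SE, adjusted p = 1.55e-06) and 3.87 ± 0.39 (SE, adjusted p = 1.11e-06). HEY1 rose as well, at 4.32 ± 0.17 (SE, adjusted p = 3.89e-11) and 4.53 ± 0.17 (SE, adjusted p = 2.63e-11). With ActA 8 rose and 3 fell in cjPGCLCs, and 9 rose and 4 fell in somatic cells, where 25.3% and 23.8% of all genes rose. Among those that fell with ActA was CDX2, from a mean of 168 normalised counts in pre-ME to 8.80 and 3.26. Its log2FCs were -4.44 ± 0.44 (SE, adjusted p = 8.38e-07) and -5.67 ± 0.55 (SE, adjusted p = 6.39e-07). Between cjPGCLCs and somatic cells 1 of the 15 was higher and 1 lower with ActA, and 2 were higher and 0 lower without, where 3.68% and 6.67% of all genes were higher and 1.16% and 2.96% lower. The gene higher with ActA was TFAP2C, and those higher without ActA were TFAP2C and CDX2. In pre-ME of TESR cultures 6 were higher with ActA than without and 0 lower, while in cjPSCM cultures 2 were higher and 0 lower. Of all genes 8.84% and 20.9% passed there in either direction.

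The defining genes of stratified surface ectoderm were absent or nearly so. TP63 had 0 to 3 counts in every library, and KRT5 had 0 counts in the 8 day 4 libraries. CDH1, the epithelial cadherin, had 1710.5 and 2012 normalised counts in TESR cjiPSCs but at most 8 counts in any library of cjPSCM cultures, day 4 cells included, while KRT8 and KRT18, keratins of simple epithelia, had 1269 to 3719.8 and 1113 to 1822 normalised counts at day 4. Of 11 tested genes of this list, 8 rose in cjPGCLCs without ActA, with a median log2 fold change of 1.57, and 7 rose and 1 fell in somatic cells, with 1.77. Of all genes 21.5% and 20.6% rose in these comparisons.

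Trophoblast shares GATA2, GATA3, TFAP2A and VTCN1 with amnion. Of its markers, GCM1 had 0 to 2 and ELF5 0 to 1 counts in all 20 libraries, and CGA had at most 9. CYP19A1, HSD3B1 and SIGLEC6 were not analysed here. The summed level of 9 trophoblast markers was 5414 to 6993 normalised counts at day 4 and 6948 to 15995 before, and PEG10 made up 62.8% and SDC1 28.2% of the day 4 sum. Of the 4 tested, 1 rose and 3 fell in cjPGCLCs without ActA, where 21.5% of all genes rose. The gene that rose was PGF, a placental growth factor, by 3.20 ± 0.32 (SE, adjusted p = 1.09e-06) on the log2 scale. The part of these markers in the levels of the members was not tested.

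HAND1, ISL1, GATA3 and TBX3 are also expressed in lateral plate and cardiac mesoderm, and most tested markers of that tissue rose from pre-ME to day 4. The summed level of 13 such markers was 7369 to 8628 normalised counts in TESR cjiPSCs and 8031 to 10378 in cjPSCM cjiPSCs. It was lower in pre-ME, at 2891 to 5356. At day 4 it was 15263 to 32005, with 15263 to 26054 in cjPGCLCs and 19502 to 32005 in somatic cells. Without ActA 8 of 11 tested rose and 1 fell in cjPGCLCs, and 10 rose and 0 fell in somatic cells, with median log2 fold changes of 3.31 and 3.16. Of all genes 21.5% and 20.6% rose in these comparisons. Of the cardiac factors, TBX20 had 1070.1 to 3760.2 normalised counts at day 4 after 2.81 to 26.7 in pre-ME, GATA5 had 129.7 to 567 after 0 to 8.76, and GATA4 and HAND2 had 690.2 to 3322 and 403 to 3509.9. By contrast NKX2-5 had only 1 to 7 counts at day 4 and MESP1 1 to 30. PDGFRA, a receptor of mesoderm, rose by 6.81 ± 0.34 (SE, adjusted p = 4.6e-10) and 6.92 ± 0.34 (SE, adjusted p = 3.48e-10) on the log2 scale. In the comparison of cjPGCLCs with somatic cells 5 of the 11 were lower without ActA, where 2.96% of all genes were, and 3 with ActA, where 1.16% were. The part of these markers in the HAND1, ISL1 and GATA3 results was not tested.

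For neural crest, where TFAP2A and TFAP2B are also expressed, the summed level of 8 markers was 4715 to 6561 normalised counts in cjPGCLCs and 6586 to 7180.1 in somatic cells. ETS1, SOX9 and SNAI2 made up 39.2%, 30.5% and 28.0% of this sum over the day 4 libraries. The defining genes FOXD3 and PAX7 had at most 1 count in each day 4 library, and SOX10 had 4 to 22. Of the 6 tested, 0 were higher in cjPGCLCs than in somatic cells, 1 was lower with ActA and 2 without ActA, where 1.16% and 2.96% of all genes were lower.

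PAX3 and ZIC1, of neural crest and neural plate border, rose in pre-ME of both media with and without ActA, and so also where TFAP2A did not pass the test. They were the only 2 of the 6 neural crest genes tested that rose. In cjPSCM pre-ME 3 of the 6 fell without ActA and 2 with ActA, and in TESR pre-ME 2 fell without ActA and 0 with ActA. Of all genes 38% and 17.7% passed the test in either direction in cjPSCM pre-ME without and with ActA. In TESR pre-ME 36.6% and 34.5% did. In cjPSCM cultures PAX3 rose by 4.99 ± 0.66 (SE, adjusted p = 3.47e-05) without ActA and 5.17 ± 0.66 (SE, adjusted p = 5.45e-05) with ActA on the log2 scale, and in TESR cultures by 4.10 ± 0.53 (SE, adjusted p = 2.78e-05) and 3.76 ± 0.54 (SE, adjusted p = 7.11e-05). ZIC1 rose by 5.75 ± 0.67 (SE, adjusted p = 1.12e-05) and 6.47 ± 0.65 (SE, adjusted p = 5.5e-06) in cjPSCM, and by 6.66 ± 0.59 (SE, adjusted p = 6.26e-07) and 5.74 ± 0.61 (SE, adjusted p = 4.13e-06) in TESR cultures. The part of these genes in the TFAP2A level was not tested.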

How the data were processed

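Poly(A) RNA-seq libraries of 20 samples, 2 in each of 10 conditions, were used. Per the submitters' processing notes and the study's methods, the authors checked reads with FastQC 0.11.8, mapped them with STAR 2.7.0a to calJac4 and counted them per gene with HTSeq 0.11, and deposited the raw counts. A second table that the authors deposited holds a normalised signal, in which the counts of every library were divided by its DESeq2 size factor. The annotation release, the strand setting and the extraction kit of each library are not given in the sources used here. Rows for reads outside genes, 10.6 to 23.2% of the reads per library, were left out. No table of sequences was used here, so none are printed.

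The tests used edgeR 4.0.16 (R 4.3.3) on the raw counts. TMM factors, filterByExpr and the quasi-likelihood F test were applied to all 20 libraries at once, and p-values were adjusted by Benjamini-Hochberg within each comparison. This fit held 15797 genes and left 10 residual degrees of freedom, and the common dispersion was 0.0203. SEs were computed from the log2FC and the F statistic. The study states no block, so none was used. p-values measure the spread between these cultures of 1 line. The 9 members and the marker lists were chosen with earlier results of these data known. All members were named, with at most 4 genes of each list, those of largest log2FC past both thresholds, all family relatives and the 3 genes most correlated with each member. Marker genes given as checks of cell type were chosen after their values were seen. Folds against groups with no count used a floor of 3 counts over the group, which covers counting error only.

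Alternatives were DESeq2 1.42.0 on all libraries, DESeq2 size factors in edgeR, a test of unfiltered genes, a minimum mean of 1 CPM, a fit of the compared libraries only, the replicate number as a block, and each library left out in turn. On data simulated for cjPGCLCs against somatic cells without ActA, edgeR called 192 of 200 genes changed by a log2FC of 3 and 0 other genes of 15220, and DESeq2 called 177 and 0 of 16809. Figures were drawn with matplotlib 3.10.9.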

Additional observations from a re-analysis of the deposited data

How the results depend on the processing

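Scaling with DESeq2 size factors and a filter at a mean of 1 CPM each changed 0 of 124 calls of single members. Without a filter on low counts 9 of these calls were gained and 0 lost, and with DESeq2 3 were gained and 1 lost. With the compared libraries alone 7 were gained and 8 lost, and the cause was not tested. Against cjPSCM cjiPSCs, the lost calls were TFAP2B (adjusted p = 0.255), GATA3 (0.125) and TBX3 (0.0869) in pre-ME with ActA. Without ActA they were TFAP2B (0.107) and ISL1 (0.112). The others were GATA3 between media in cjiPSCs (0.159), GATA3 in TESR pre-ME without ActA against cjiPSCs (0.121), and GABRP between media in pre-ME without ActA (0.0897). The 124 left out most members that edgeR had not called in comparisons that include cjiPSCs or pre-ME, so gains there were not counted. For ActA in pre-ME, DESeq2 called 4 members against 3 with edgeR in TESR cultures, and 5 against 4 in cjPSCM cultures. The members past both thresholds went from 1 to 0 for pre-ME with ActA against cjiPSCs in cjPSCM when only these libraries were fitted, where 0.874% of all genes were past both thresholds, as were 2.30% in pre-ME without ActA. For ActA in somatic cells the share was 0.0398% without a filter, 0.0130% with DESeq2 and 0.0317% with the compared libraries alone. The interaction of ActA and medium gave 3 members in place of 0 without a filter, with DESeq2 (each time TBX3, HAND1 and ISL1) and with the compared libraries alone (TFAP2A, TBX3 and ISL1), and that of sorting and ActA gave 1, GATA2, without a filter and with the compared libraries alone. The calls over all genes rose as well. For ActA and medium they were 735 of 25102, 338 of 11475 and 2494 of 15797 genes in these settings, against 63 of 15797 in the main fit. For sorting and ActA they were 269 of 25102 without a filter and 149 of 15797 with the compared libraries alone, against 10 of 15797.

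When each library was left out in turn, the number of members past both thresholds ranged from 0 to 1 for pre-ME with ActA against cjiPSCs in cjPSCM (0 without cjiPSC replicate 1 or either pre-ME replicate), from 1 to 4 between media in pre-ME without ActA (1 without either cjPSCM replicate or TESR replicate 2), and from 0 to 2 for ActA in cjPGCLCs (0 without replicate 1 with ActA, 1 without either replicate without ActA). The log2FC changed sign for members that had not passed the test, with ranges of -1.02 to 0.76 for TFAP2A in pre-ME with ActA against cjiPSCs in cjPSCM, -1.32 to 0.20 for TFAP2A and -0.80 to 0.44 for VTCN1 in cjPGCLCs against somatic cells with ActA, and -0.36 to 0.080 for HAND1 without ActA. For ActA in somatic cells the ranges were -1.65 to 0.071 for TFAP2B, -0.27 to 0.019 for TBX3 and -0.37 to 0.052 for HAND1, for the interaction of ActA and medium -0.20 to 0.79 for TFAP2B and -0.29 to 0.22 for GATA3, and for that of sorting and ActA -0.11 to 0.12 for ISL1.

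Replicate numbers were shared between conditions by number only, and the deviations of same-numbered libraries correlated at -0.19 to 0.23. The replicate block ended 1 of 124 calls, that of GABRP in cjPGCLCs against somatic cells without ActA (log2FC 1.81, adjusted p = 0.0512), and changed no other of the 124. With the numbers crossed, chosen after seeing the data, 1, 3 and 5 members lay past both thresholds in the comparisons of cjPSCM pre-ME with and without ActA against cjiPSCs and of somatic cells against pre-ME without ActA, the same numbers as with no block. With 2 libraries a condition, small differences of low-count members could not be resolved.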

Other observations

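Targets of BMP signalling rose at day 4 together with the members. All 9 genes of this list rose from pre-ME to cjPGCLCs and to somatic cells with ActA, where 25.3% and 23.8% of all genes rose. Without ActA 8 rose in each, where 21.5% and 20.6% of all genes did. The median log2FC was 2.41 in cjPGCLCs and 3.04 in somatic cells without ActA, against 0.014 and 0 over all genes. SMAD6, an inhibitory SMAD, rose by 5.06 ± 0.28 (SE, adjusted p = 1.28e-09) in cjPGCLCs and 4.80 ± 0.28 (SE, adjusted p = 1.81e-09) in somatic cells. Between the sorted populations 0 genes of the list passed the test with ActA, and 1 was lower without ActA.

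Of 8 genes of extraembryonic mesoderm, most of them matrix genes, 5 rose in cjPGCLCs and 7 in somatic cells under both protocols. Of all genes 25.3% and 23.8% rose with ActA, and 21.5% and 20.6% without ActA. POSTN, a secreted matrix protein, rose by 5.19 ± 0.39 (SE, adjusted p = 5.01e-08) in cjPGCLCs and 7.49 ± 0.41 (SE, adjusted p = 1.14e-09) in somatic cells without ActA, and 5 of the 8 genes were lower in cjPGCLCs than in somatic cells there, where 2.96% of all genes were lower. Of 5 neural genes, 3 fell and 0 rose in cjPGCLCs without ActA, and SOX3 fell there by a log2FC of -4.27 ± 0.53 (SE, adjusted p = 1e-05). With ActA 3 fell and 1 rose in cjPGCLCs. In somatic cells 3 fell and 1 rose without ActA, and 1 fell and 0 rose with ActA. Of 5 mesendoderm genes 1 fell in cjPGCLCs without ActA and 0 rose, and SP5, a WNT target, had a log2FC of -4.48 ± 0.24 (SE, adjusted p = 9.86e-10). The shares of all genes that rose in these comparisons are those given above. Of 8 germ cell genes 5 were higher in cjPGCLCs than in somatic cells under each protocol, with median log2FCs of 1.65 with ActA and 1.95 without. Of all genes 3.68% were higher with ActA and 6.67% without ActA.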
